A study of Homo sapiens with 20 samples.

Results

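The early transcriptional response of U2-OS cells to ionizing radiation was examined in 10 of the 20 RNA-seq libraries of a series on DNA damage and NF-κB. U2-OS is an established human osteosarcoma cell line. The libraries were chosen by their labels alone: 5 libraries of untreated cells and 5 libraries of cells collected 90 minutes (1.5 h) after irradiation with 20 Gy. All cells were grown in DMEM with fetal calf serum, and the labels name no knockdown for either group. The other 10 libraries were of cells 7 days after the same dose and of cells with a knockdown of NFKBIA by shRNA. They entered the filter on low counts, the scaling and the model's estimate of the spread. Their levels are given beside those at 1.5 h where this is stated. The quintuplicates of each group come from a single cell line and are called biological replicates in the study. How the cultures were set up is not given, so p values describe the spread between samples, estimated over all 20 libraries.

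Ionizing radiation breaks both DNA strands, and the kinase ATM signals the breaks to p53, to the checkpoint kinases and to the IκB kinase complex. p53 and NF-κB are the transcription factors best known in this response. In the same period cells also use immediate-early genes, short genes that are transcribed without new protein synthesis after many stimuli and that encode transcription factors, phosphatases and factors of mRNA decay. Checkpoint signaling meanwhile stops cells before mitosis by holding back the kinases CDK1 and PLK1.

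Total counts per library lay between 22535659 and 40390961 in untreated cells and between 34345867 and 39546228 at 1.5 h. Expression is given as CPM, the counts of a gene relative to the scaled total of its library. The deposited file lists 20314 genes, and 14992 of them had enough counts to be tested. Markers of mesenchymal cells and osteoblasts had a summed level of 9460 to 14100 CPM in untreated cells and of 9930 to 11200 CPM at 1.5 h. Most of it came from FN1, VIM, SPARC and COL1A1, with at least 80637, 62906, 44206 and 49937 counts in each of the 10 libraries. Other members were rare: COL1A2 had 8 to 21 counts and BGLAP 20 to 54. The osteoblast markers SP7 and IBSP had at most 3 and 1 counts in any of the 10 libraries, and TWIST1 had 0. Summed levels of epithelial markers (19.5 to 27.8 CPM against 19.8 to 24.7 CPM), haematopoietic markers (12.6 to 20.2 CPM against 12 to 16.3 CPM) and endothelial markers (44.7 to 61.1 CPM against 46.9 to 51.3 CPM) were low in both groups and overlapped.

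The fifth untreated library stood apart. It was the shallowest, and its median correlation with the other untreated libraries was 0.978, against 0.989 to 0.993 for the remaining libraries of that group. Untreated libraries 1 to 4 were sequenced on lane 2, the fifth on lane 3 together with libraries 1 to 3 of the 1.5 h group, and libraries 4 and 5 of the 1.5 h group on lane 4. The fifth untreated library is therefore the only untreated sample on a lane with irradiated samples. Results that rest on it are given with and without it. Without it, lane and irradiation cannot be told apart.

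At 1.5 h post-IR, 312 of 14992 genes tested were higher than in untreated cells (2.08%) and 236 were lower (1.57%). A gene was called where its log2 fold change exceeded 0.5 in either direction and edgeR's quasi-likelihood test gave an adjusted p under 0.05. Of the genes that rose, 28 belong to a reference list of p53 targets, of which 48 were tested. Another 12 belong to a reference list of NF-κB targets, of which 38 were tested, and 272 belong to neither. Both lists are short, so a gene outside them may still be a target of either factor. None of the 236 lower genes is in either list. Every 1.5 h library lay above every untreated library for 260 of the 312 higher genes, and over all genes tested this held for 1112 genes (7.42%). Every 1.5 h library lay below every untreated library for 143 of the 236 lower genes, and over all genes for 727 (4.85%).

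The rises and the falls did not depend on the fifth untreated library to the same degree. When it was left out, 336 genes were called higher and 279 of the 312 were among them. The number of lower genes dropped to 155, of which 119 were among the 236. With only the 10 libraries compared in the fit, 277 genes were called higher and 105 lower. Of these, 266 were among the 312 and 105 among the 236. The fifth untreated library had the highest value of its group for 160 of the 236 lower genes (67.8%), compared with 35.2% of all genes tested. It had the lowest value for 112 of the 312 higher genes (35.9%), compared with 38% of all genes. Values given for lane 3 compare irradiated libraries 1 to 3 with that library as the only untreated sample, with no test.

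The rises were mostly moderate. The median log2 fold change was 0.68 among the higher genes and -0.65 among the lower genes. Of the higher genes 65 exceeded a 2-fold change and 7 a 4-fold change, while 25 of the lower genes exceeded a 2-fold change and 0 a 4-fold change. The higher genes took up 0.881% of all CPM in untreated cells and 1.55% at 1.5 h. The lower genes took up 1.27% and 0.815%.

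Among genes with non-overlapping libraries and a mean of at least 1 CPM in a group, the largest rise was that of ATF3, a stress-induced transcription factor of the ATF/CREB family. Its level was 14.3, 19.2, 19.4, 19.3 and 16 CPM in untreated libraries 1 to 5 and 109, 99.8, 106, 110 and 111 CPM in 1.5 h libraries 1 to 5. The groups were far apart in all 10 libraries, with a 6.06-fold higher mean (log2 fold change 2.6, standard error 0.09, edgeR adjusted p = 5.86e-15). FOSB, a subunit of the AP-1 transcription factor, was measured at 0.267, 0.553, 0.475, 0.264 and 1.14 CPM in untreated and 1.83, 2.08, 2.53, 1.79 and 1.7 CPM in irradiated cells. It stayed rare, with the fifth untreated library as the highest of its group and still under all irradiated libraries (log2 fold change 1.97, standard error 0.23, edgeR adjusted p = 3.32e-06). On lane 3 the difference was 0.88, and without the fifth untreated library it was 2.3. MAFF, a small MAF protein that pairs with other leucine zipper factors, rose from 26.6 ± 5.14 to 78.7 ± 4.39 CPM (mean ± SD, n = 5 each; log2 fold change 1.56, standard error 0.09, edgeR adjusted p = 1.33e-10).

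ATF3, FOSB and MAFF belong to a list named early response transcription factors, which also holds other immediate-early genes such as IER3. Of its 24 genes 14 rose and 0 fell. The median log2 fold change of the list was 0.62, compared with -0.03 over all genes tested. No member of the list had a negative log2 fold change, and 0 members fell at an unadjusted p under 0.05 or with DESeq2. With the fifth untreated library left out 18 members rose. EGR4, a zinc finger factor of the EGR family, increased from 0.226 ± 0.039 to 0.865 ± 0.166 CPM (log2 fold change 1.9, standard error 0.2, edgeR adjusted p = 7.15e-07) and remained under 1 CPM. Of 19 KLF and SP factors, zinc finger regulators that include further early response genes, 2 rose and 0 fell, with a median of 0.07, 1 member lower at an unadjusted p under 0.05 and 0 lower by DESeq2. The 2 were SP4 and KLF10, and KLF10 overlapped between groups. With only the 10 libraries compared 1 rose. The AP-1 subunits differed widely in level and in change. JUNB was at 66.4, 70.2, 67.1, 81.5 and 97.2 CPM in untreated cells and at 187, 151, 175, 156 and 173 CPM at 1.5 h, so that all irradiated libraries were above the highest untreated library (log2 fold change 1.14, standard error 0.08, edgeR adjusted p = 3.59e-09).

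JUN and FOS had smaller log2 fold changes than JUNB and FOSB. JUN was at 109 to 118 CPM in untreated and at 158 to 192 CPM in irradiated cells, and FOS at 16.9 to 20 CPM and at 24.9 to 31.2 CPM, both with a log2 fold change of 0.61 and adjusted p values of 7.44e-09 and 3.80e-07 in edgeR. At 1.5 h the level per kilobase of gene model was 92.8 CPM for JUNB, 51.8 CPM for JUN, 8.76 CPM for FOS and 0.357 CPM for FOSB. The order from JUNB to FOSB was the same in untreated cells, with 42.1, 34, 5.73 and 0.097 CPM per kilobase. NR4A1, an orphan nuclear receptor, and CSRNP1, a nuclear protein induced by serum, rose by log2 fold changes of 0.82 and 0.83 (edgeR adjusted p = 2.53e-09 and 2.27e-08). IER3, a short immediate-early gene, increased from 94.3 ± 15.4 to 243 ± 16.6 CPM (log2 fold change 1.37, standard error 0.08, edgeR adjusted p = 1.65e-10). ARC, best known as an immediate-early gene of neurons, was also expressed in these cells, at 31.9 to 35.8 CPM in untreated and at 97.5 to 123 CPM in irradiated libraries, and rose (log2 fold change 1.65, standard error 0.06, edgeR adjusted p = 1.73e-14).

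**Figure D1:**
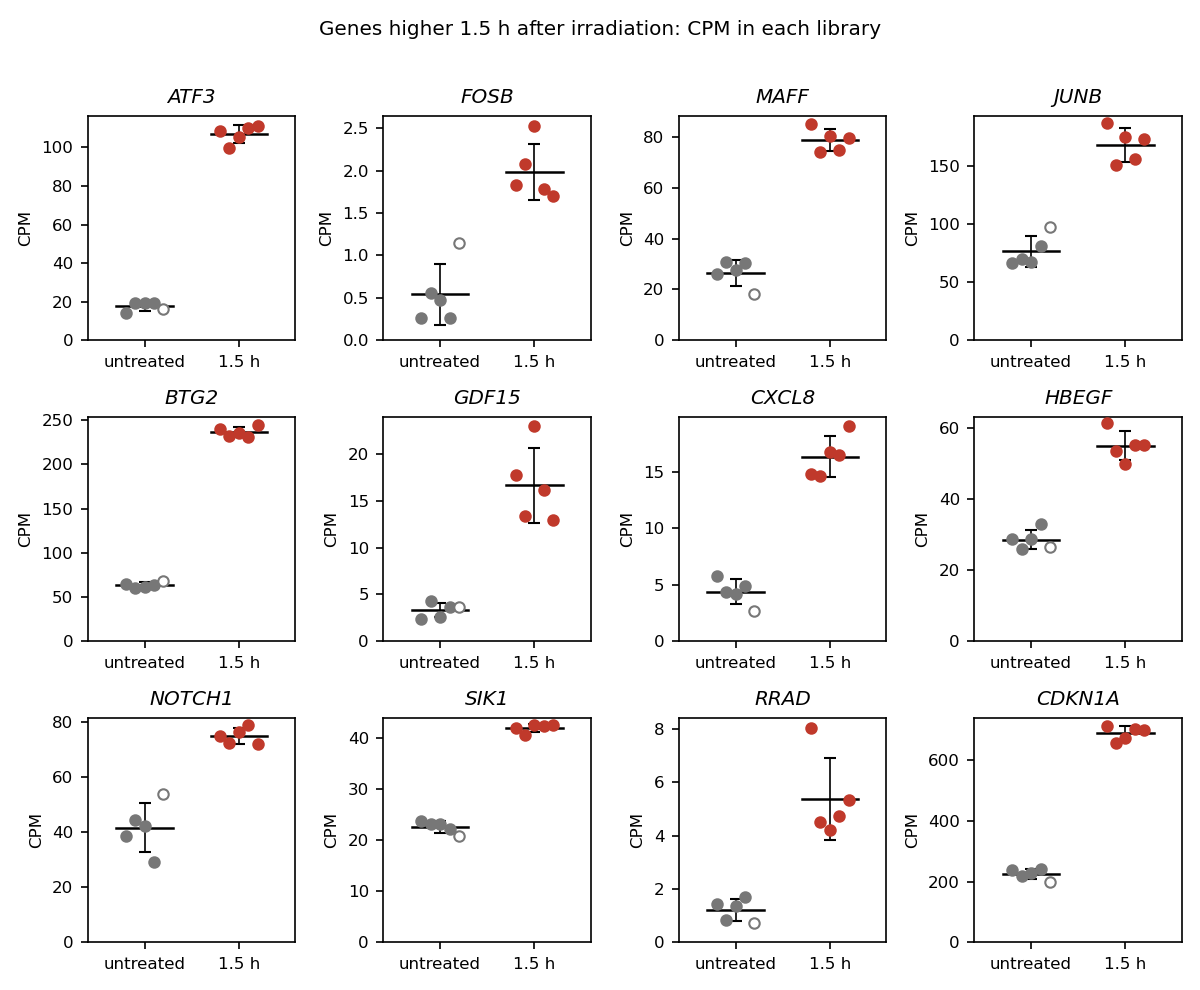
CPM of 12 genes that were higher at 1.5 h post-IR, with a point for each of the 5 untreated (grey) and 5 irradiated (red) libraries, a line for the mean and bars for the SD. The hollow point is the fifth untreated library. In all 12 panels every irradiated library lies above every untreated library, with ATF3 at 14.3 to 19.4 CPM against 99.8 to 111 CPM.

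Immediate-early and cytokine genes often carry a TATA box shortly before the start of transcription. The stretch from 60 to 21 bases before the RefSeq start (build GRCh38.p14) is shown for 4 genes among the rises that hold one, with TATAAA in capitals. The windows are chr19:45467936-45467975 and chr19:12791426-12791465 and chr19:18386098-18386137 and chr4:73740509-73740548, all on the plus strand.
FOSB: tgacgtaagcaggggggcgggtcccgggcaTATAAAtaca
JUNB: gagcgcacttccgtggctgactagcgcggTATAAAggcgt
GDF15: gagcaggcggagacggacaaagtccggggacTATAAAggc
CXCL8: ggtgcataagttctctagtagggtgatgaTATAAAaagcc
The match begins 30 bases before the start in FOSB, 31 in JUNB, 29 in GDF15 and 31 in CXCL8. TATAAA on either strand occurs in 12% of all 27305 promoter windows of 300 bases. Only 230 of the 312 higher genes had a promoter window, which is under 80%, so the share among the higher genes is not given. The 4 genes shown were picked because they hold a TATA box and do not tell how common it is.

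Some genes that shorten the life of other transcripts rose. In a list of 17 factors of mRNA decay and anti-proliferative adaptors 5 rose and 0 fell, with a median of 0.26 and with 0 members lower at an unadjusted p under 0.05 or by DESeq2. BTG2, which recruits the CCR4-NOT deadenylase and is also a p53 target, had 65, 60.4, 61.7, 64 and 68.7 CPM in untreated and 240.1, 232, 236, 232 and 245 CPM in irradiated libraries. The spread within each group was small against the 3.7-fold difference (log2 fold change 1.89, standard error 0.04, edgeR adjusted p = 1.49e-17). ZC3H12A, an endonuclease that degrades inflammatory transcripts, rose from 19.4 ± 2.35 to 35.6 ± 1.77 CPM (log2 fold change 0.88, standard error 0.07, edgeR adjusted p = 2.01e-08). The related adaptor BTG1 rose by 0.64 (edgeR adjusted p = 5.84e-06). TOB1, of the same family, was at 30.2 to 32.2 CPM in untreated libraries 1 to 4, at 62.6 CPM in the fifth and at 59.4 to 65.5 CPM at 1.5 h. The groups overlapped because of the fifth untreated library: the log2 fold change was 0.76 with it, 1.02 without it and 0.02 on lane 3.

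Negative regulators of MAP kinases changed in both directions. Of 14 feedback genes tested 3 rose and 1 fell, with a median of 0.21. The phosphatase gene DUSP2 was at 17.8, 18.6, 15.6, 18.6 and 11.3 CPM in untreated and at 30.6, 26.7, 31.1, 30.6 and 31 CPM in irradiated cells, with no overlap (log2 fold change 0.86, standard error 0.1, edgeR adjusted p = 1.21e-06). DUSP1 rose from 40.1 ± 1.83 to 57.3 ± 6.31 CPM, just past the threshold of 0.5 (log2 fold change 0.51, standard error 0.08, edgeR adjusted p = 6.21e-05). DUSP8 had a log2 fold change of 0.64 with overlapping groups, and of 0.2 on lane 3 (edgeR adjusted p = 4.34e-04). PHLDA1, a pleckstrin homology-like protein induced by growth factors in other settings, went the opposite way. Its level was 125, 116, 101, 108 and 188 CPM in untreated and 58.8, 59.6, 70.6, 66.8 and 62.2 CPM in irradiated libraries, lower in all of them (log2 fold change -1, standard error 0.13, edgeR adjusted p = 7.33e-06). The fifth untreated library was the highest of its group, and the log2 fold change of PHLDA1 was -0.82 without it.

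Transcripts of secreted factors rose as well, some of them also members of the p53 or NF-κB lists. Of 34 cytokines and growth factors tested 14 rose and 0 fell, with a median of 0.3. At an unadjusted p under 0.05 there were 3 members lower, and 0 by DESeq2. GDF15, a stress-induced member of the TGF-β superfamily, had 2.43, 4.32, 2.63, 3.66 and 3.62 CPM in untreated and 17.7, 13.4, 22.9, 16.2 and 13 CPM in irradiated libraries, a 5.03-fold difference (log2 fold change 2.33, standard error 0.16, edgeR adjusted p = 1.68e-09). IL12A, which encodes a subunit of interleukin-12 and of interleukin-35, was rare, with 0.327, 0.194, 0.3, 0.264 and 0.143 CPM in untreated and 1.68, 1.1, 1.07, 1.17 and 1.08 CPM in irradiated libraries. The first irradiated library was the highest, and the groups did not overlap (log2 fold change 2.25, standard error 0.22, edgeR adjusted p = 1.87e-07). CXCL8, which encodes the neutrophil chemokine interleukin-8, rose from 4.39 ± 1.12 to 16.3 ± 1.8 CPM (log2 fold change 1.87, standard error 0.14, edgeR adjusted p = 5.44e-09), and CSF2, which encodes GM-CSF, from 0.66 ± 0.341 to 1.8 ± 0.329 CPM (log2 fold change 1.46, standard error 0.33, edgeR adjusted p = 0.00311).

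HBEGF, IL11 and CSF1 are further secreted factors that rose. HBEGF, a ligand of the EGF receptor, was at 28.9, 25.9, 28.9, 33 and 26.7 CPM in untreated and at 61.4, 53.5, 49.9, 55.2 and 55.4 CPM in irradiated cells (log2 fold change 0.94, standard error 0.07, edgeR adjusted p = 2.92e-09). IL11, a cytokine of the interleukin-6 family, increased from 6.46 ± 1.11 to 12.1 ± 0.761 CPM (log2 fold change 0.89, standard error 0.09, edgeR adjusted p = 5.78e-07). CSF1, which encodes M-CSF, increased from 21.4 ± 1.8 to 38 ± 2.15 CPM (log2 fold change 0.83, standard error 0.06, edgeR adjusted p = 1.35e-09). In each of these genes all irradiated libraries were above all untreated libraries. GDF15 and CXCL8 were higher still at 7 days, with 48.1 ± 5.57 and 55.9 ± 8.45 CPM, whereas HBEGF was at 37.4 ± 2.51 CPM, between its untreated and its 1.5 h level. These 7-day levels were not tested here.

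Developmental signaling pathways showed rises and falls side by side. In a list of 35 genes of BMP and TGF-β signaling and ID genes 4 rose and 2 fell, with a median of -0.02. The ligands BMP4 and BMP2 moved in opposite directions. BMP4 was at 109.8, 91.7, 108, 99.8 and 153 CPM in untreated and at 52.1, 48.7, 47.1, 50.5 and 52.8 CPM in irradiated libraries, a fall in all of them (log2 fold change -1.16, standard error 0.1, edgeR adjusted p = 2.50e-08). The fifth untreated library was the highest, and without it the log2 fold change was -1.02. BMP2 rose from 3.85 ± 0.379 to 6.39 ± 0.911 CPM (log2 fold change 0.74, standard error 0.1, edgeR adjusted p = 1.54e-05). ID4, a helix-loop-helix inhibitor, rose from 1.37 ± 0.223 to 2.67 ± 0.276 CPM (log2 fold change 0.98, standard error 0.15, edgeR adjusted p = 8.88e-05), and TGIF1, a homeobox repressor of TGF-β signaling, fell from 40.4 ± 2.15 to 24 ± 1.02 CPM (log2 fold change -0.75, standard error 0.05, edgeR adjusted p = 6.54e-10).

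The receptor NOTCH1 and its ligand JAG1 rose together. NOTCH1 was at 38.7, 44.4, 42.2, 29.3 and 54 CPM in untreated and at 75.1, 72.3, 76.5, 79 and 72.2 CPM in irradiated libraries. The untreated libraries were uneven, with the fifth the highest, and the groups did not overlap (log2 fold change 0.85, standard error 0.1, edgeR adjusted p = 3.60e-06; 0.47 on lane 3). JAG1 increased from 12.7 ± 0.944 to 21.7 ± 1.25 CPM (log2 fold change 0.77, standard error 0.05, edgeR adjusted p = 1.74e-09). In the list of Notch, Hedgehog and Wnt feedback genes these were the only rises among 28 genes tested, while 5 fell, with a median of -0.17, and 2 fell without the fifth untreated library. RNF43, a ubiquitin ligase that removes Wnt receptors from the cell surface, was at 43.2, 40.8, 43.4, 30.7 and 48.5 CPM in untreated and at 20.3, 23, 22.2, 21.3 and 23.7 CPM in irradiated cells (log2 fold change -0.9, standard error 0.1, edgeR adjusted p = 1.39e-06). FZD2, a Wnt receptor encoded by a single exon, fell from 29.5 ± 2.5 to 19.2 ± 2.12 CPM (log2 fold change -0.62, standard error 0.07, edgeR adjusted p = 1.43e-06). Without the fifth untreated library the log2 fold changes were -0.84 and -0.66. FZD2 was at -0.45 on lane 3 and at -0.46 with adjustment for GC content and length, when it was not called.

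The p53 and NF-κB reference targets are given briefly. Of 48 p53 targets 28 rose and 0 fell, with a median of 0.6. CDKN1A, the p53 target that encodes the CDK inhibitor p21, increased from 225 ± 17.2 to 689.9 ± 24.3 CPM, the largest gain in CPM among the called genes, and was high in all 5 irradiated libraries (log2 fold change 1.61, standard error 0.05, edgeR adjusted p = 5.86e-15). MDM2, RRM2B, BTG2 and PTP4A1 followed in gain: MDM2 rose from 205 ± 7.42 to 498 ± 13.8 CPM, RRM2B, a subunit of ribonucleotide reductase, from 231 ± 35.8 to 417 ± 14.2 CPM, and the phosphatase gene PTP4A1 from 225 ± 14.8 to 386 ± 9.67 CPM (edgeR adjusted p = 4.23e-15, 5.63e-08 and 8.24e-11). Of 38 NF-κB targets 12 rose and 0 fell, with a median of 0.24. With an unadjusted p under 0.05 there was 1 member lower in each of the p53 and NF-κB lists, and 0 by DESeq2.

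Several of the largest rises lie outside the classic arrest and inflammation genes. RRAD, a small GTPase of the RGK family that restrains calcium channels, was at 1.43, 0.83, 1.38, 1.71 and 0.713 CPM in untreated and at 8.05, 4.52, 4.22, 4.75 and 5.35 CPM in irradiated libraries, the highest value in the first (log2 fold change 2.13, standard error 0.21, edgeR adjusted p = 2.63e-07). PVRL4, now NECTIN4, a cell adhesion molecule of epithelia, rose from 6.53 ± 0.992 to 28.3 ± 1.51 CPM (log2 fold change 2.1, standard error 0.08, edgeR adjusted p = 5.96e-14) and was at 70.9 ± 2.74 CPM at 7 days. GRHL3, a transcription factor of epidermal differentiation, rose from 0.577 ± 0.169 to 1.53 ± 0.303 CPM (log2 fold change 1.41, standard error 0.19, edgeR adjusted p = 1.26e-05). In the list of epithelial markers none of 9 genes tested was called in either direction, with 0 at an unadjusted p under 0.05 and 0 by DESeq2.

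Genes of both death and survival rose, while most of the apoptosis list did not pass. Of 32 death receptor and BCL2 family genes 4 rose and 1 fell, with a median of 0.07. BBC3, which encodes the pro-apoptotic protein PUMA, was at 31.7, 33.7, 33, 38.3 and 23.9 CPM in untreated and at 101, 81, 93.6, 92.5 and 90.4 CPM in irradiated cells (log2 fold change 1.51, standard error 0.09, edgeR adjusted p = 7.71e-11). FAS, a death receptor, rose from 34 ± 3.02 to 69.9 ± 1.09 CPM (log2 fold change 1.04, standard error 0.05, edgeR adjusted p = 1.71e-12), and BIRC3, an inhibitor of apoptosis and an NF-κB target, from 32 ± 4.57 to 90.1 ± 6.33 CPM (log2 fold change 1.5, standard error 0.08, edgeR adjusted p = 4.04e-11). BMF, a BH3-only pro-apoptotic gene, fell from 22.5 ± 1.4 to 14 ± 0.546 CPM, lower in all irradiated libraries (log2 fold change -0.68, standard error 0.06, edgeR adjusted p = 8.92e-08).

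Among ubiquitin ligases and deubiquitinases 4 of 32 genes rose and 0 fell, with a median of 0.24, and 15 members lay above in all libraries. FBXW7, the substrate receptor of a ligase that targets cyclin E and MYC, was at 40.3, 42.6, 42.3, 39.3 and 51.3 CPM in untreated and at 83.8, 89.2, 85.7, 85.2 and 89.1 CPM in irradiated libraries (log2 fold change 1.01, standard error 0.06, edgeR adjusted p = 8.24e-11). TNFAIP3, which encodes the NF-κB inhibitor A20, rose from 18.7 ± 3.59 to 49.4 ± 4.53 CPM (log2 fold change 1.41, standard error 0.09, edgeR adjusted p = 5.00e-10), and the ligase gene PELI1 from 13.7 ± 1.32 to 21 ± 1.04 CPM (log2 fold change 0.61, standard error 0.07, edgeR adjusted p = 9.37e-07). With an unadjusted p under 0.05 there were 2 members of the list lower, and 0 by DESeq2. Splicing genes had mostly small positive values. Of 27 splicing kinases and SR proteins 26 had a positive log2 fold change, the median was 0.16 and 10 lay above in all libraries, but only CCNL1 passed, with 51.8 ± 4.13 CPM in untreated and 81.5 ± 3.23 CPM in irradiated cells (log2 fold change 0.65, standard error 0.05, edgeR adjusted p = 1.14e-08). Over all genes tested, 7.42% lay above in all libraries. Genes with low GC content were also higher on median at 1.5 h. With an adjustment of each library for GC content and length the log2 fold change was 0.47 for CCNL1 and 0.49 for PELI1, and neither was called.

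**Figure D2:**
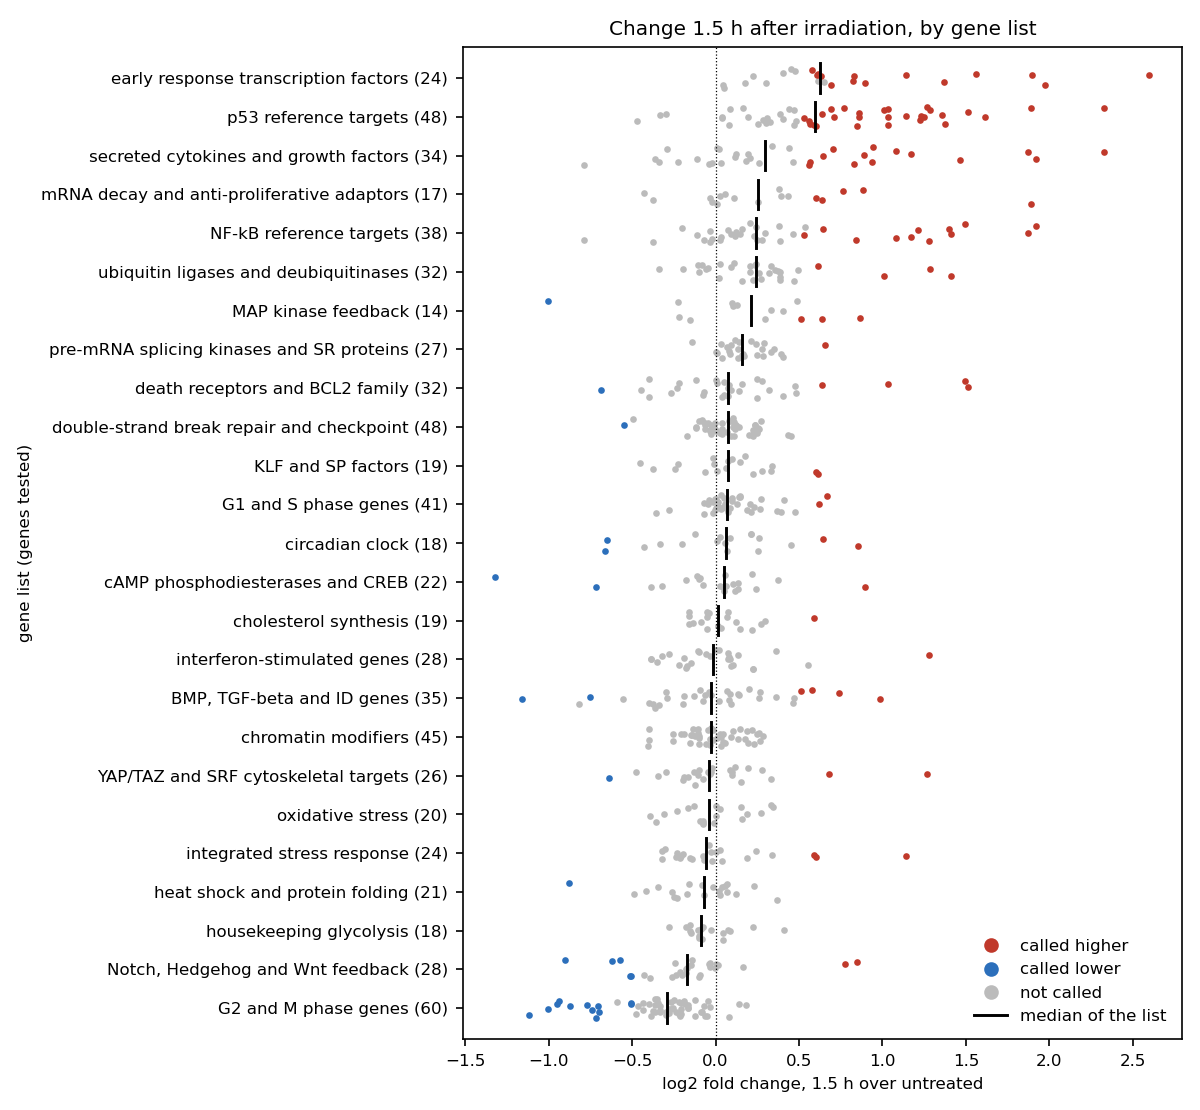
Log2 fold change at 1.5 h post-IR over untreated cells for each tested gene of 25 lists, with called genes in color, genes not called in grey and the median of each list as a black line. The lists are ordered by their median, from 0.62 for early response transcription factors to -0.29 for genes of G2 and M phase.

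Genes of G2 and M phase had the lowest median of the 25 lists. Of 60 genes tested 12 fell and 0 rose, and the median was -0.29. The log2 fold change was negative for 57 of the 60, and every irradiated library lay below every untreated library for 34, against 4.85% of all genes. With an unadjusted p under 0.05 there were 46 members lower and 2 higher, and DESeq2 called 12 lower and 0 higher. With the fifth untreated library left out 10 fell and the median was -0.25. On lane 3 the median was -0.45.

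The largest falls in this list were those of PSRC1, BORA, FAM83D and PIF1. PSRC1, a microtubule-associated protein of the spindle, was at 59.2, 49.9, 54.8, 67.4 and 51.7 CPM in untreated and at 26.7, 26.3, 24.8, 25.3 and 27.2 CPM in irradiated libraries, less than any untreated value in all 5 (log2 fold change -1.12, standard error 0.07, edgeR adjusted p = 1.31e-10). BORA, the cofactor with which Aurora A activates PLK1, was at 29.4, 28.1, 28.4, 31.1 and 25.5 CPM and 14.3, 16.1, 14.6, 12.4 and 13.7 CPM (log2 fold change -1, standard error 0.06, edgeR adjusted p = 1.77e-10). The kinases on both sides of BORA were lower too. AURKA, which encodes Aurora A, fell from 144 ± 15.6 to 88.3 ± 5.62 CPM (log2 fold change -0.71, standard error 0.06, edgeR adjusted p = 3.17e-08). PLK1 was at 144, 123, 138, 146 and 196 CPM in untreated and at 95.4, 88.1, 80.4, 85.4 and 96.8 CPM in irradiated cells, with the fifth untreated library the highest (log2 fold change -0.74, standard error 0.09, edgeR adjusted p = 2.31e-06). Without that library the log2 fold change of PLK1 was -0.63.

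CCNF, a cyclin that serves as an F-box receptor of a ubiquitin ligase, was at 159, 146, 158, 149.6 and 130.1 CPM in untreated and at 85.7, 81.1, 78.9, 78 and 81.2 CPM in irradiated libraries (log2 fold change -0.87, standard error 0.05, edgeR adjusted p = 1.33e-10). FAM83D, which targets casein kinase to the spindle, fell from 101 ± 9.37 to 52.4 ± 5.19 CPM (log2 fold change -0.95, standard error 0.07, edgeR adjusted p = 3.40e-09). The helicase gene PIF1 fell from 58.9 ± 12 to 30.7 ± 2.98 CPM (log2 fold change -0.94, standard error 0.11, edgeR adjusted p = 1.68e-06), with the fifth untreated library the lowest of its group and a log2 fold change of -0.32 on lane 3. CENPA, the histone variant of centromeres, and CDCA8, the chromosomal passenger protein borealin, had log2 fold changes of -0.72 and -0.7 (edgeR adjusted p = 2.31e-08 and 4.93e-10). In bulk libraries a smaller share of cells in G2 and M phase and less RNA per cell in that phase cannot be told apart. At 7 days PLK1 and CCNF were lower still, with 50.2 ± 1.41 and 66.2 ± 1.69 CPM, and PSRC1 and BORA were close to their 1.5 h level, with 27.8 ± 0.985 and 14.8 ± 0.492 CPM.

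Genes of G1 and S phase did not fall with them. Of 41 tested 2 rose and 0 fell, with a median of 0.07. At an unadjusted p under 0.05 there were 17 members higher and 2 lower, and DESeq2 called 2 higher and 0 lower. The median was 0.06 without the fifth untreated library and 0.32 on lane 3. CCNE2, which encodes cyclin E2, rose from 16.6 ± 2.15 to 26.3 ± 1.12 CPM (log2 fold change 0.67, standard error 0.07, edgeR adjusted p = 1.21e-06) and the phosphatase gene CDC25A, whose protein is degraded after DNA damage, from 36.4 ± 1.25 to 56 ± 3.9 CPM (log2 fold change 0.62, standard error 0.05, edgeR adjusted p = 1.96e-08). CCNE2 was at 0.4 on lane 3 and at 0.48 with adjustment for GC content and length, when it was not called. In a list of 48 genes of double-strand break repair and checkpoints 0 rose and 1 fell, with 16 higher and 1 lower at an unadjusted p under 0.05, and 0 higher by DESeq2. The gene that fell was H2AFX, which encodes the histone variant phosphorylated at breaks. Without the fifth untreated library 1 gene of the list rose and 0 fell. H2AFX overlapped between groups, with 138 to 261 CPM and 109.8 to 157 CPM, and its log2 fold change of -0.55 was -0.38 without the fifth untreated library (edgeR adjusted p = 0.00389 and 0.0032).

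**Figure D3:**
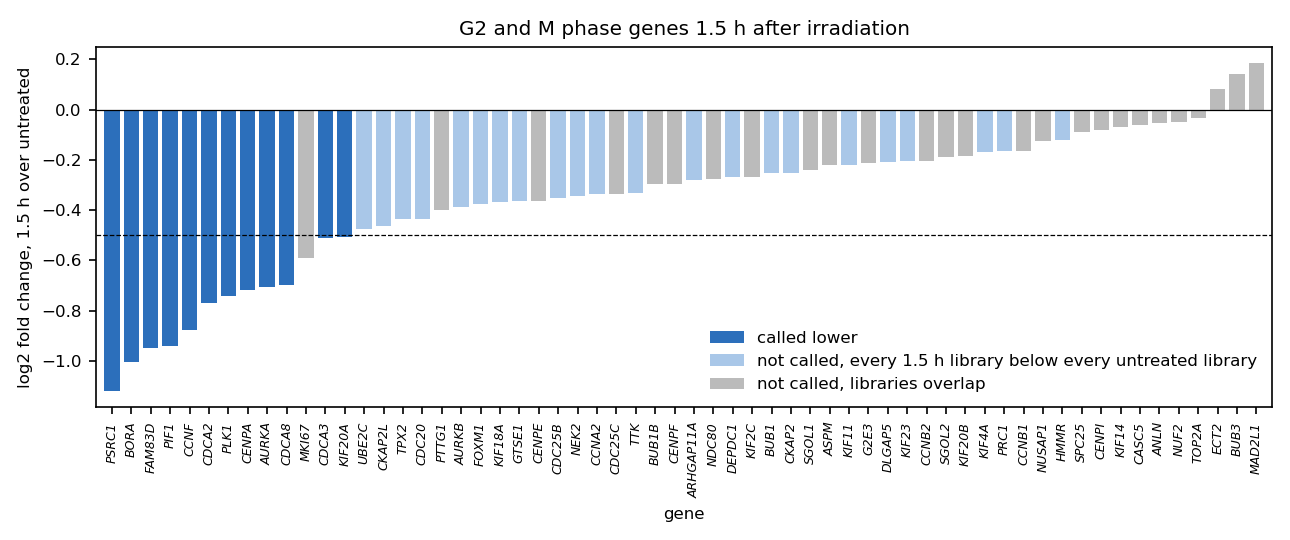
Log2 fold change at 1.5 h post-IR over untreated cells for each of the 60 tested genes of the G2 and M phase list, ordered from the largest fall. Dark blue bars are the 12 genes called lower, light blue bars are genes not called whose irradiated libraries all lie below the untreated libraries, and the dashed line marks -0.5.

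Promoters of late cell cycle genes carry a cell cycle gene homology region (CHR), TTTGAA, and CCAAT boxes. The sequences before the start of 5 of the genes that fell are shown with TTTGAA and CCAAT in capitals as they were found on either strand, from RefSeq (build GRCh38.p14). The windows are chr16:23678804-23678883, chr1:37692431-37692510, chr2:26785921-26786050 and chr16:2429332-2429381 on the plus strand and chr15:64825653-64825732 on the minus strand.
PLK1: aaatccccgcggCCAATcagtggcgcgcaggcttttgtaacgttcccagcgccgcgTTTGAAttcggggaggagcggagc
CDCA8: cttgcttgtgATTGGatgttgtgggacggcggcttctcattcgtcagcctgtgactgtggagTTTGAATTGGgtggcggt
CENPA: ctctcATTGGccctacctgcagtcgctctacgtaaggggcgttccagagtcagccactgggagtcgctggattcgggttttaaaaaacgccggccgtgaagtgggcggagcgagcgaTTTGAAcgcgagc
CCNF: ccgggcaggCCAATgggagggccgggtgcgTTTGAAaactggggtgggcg
PIF1: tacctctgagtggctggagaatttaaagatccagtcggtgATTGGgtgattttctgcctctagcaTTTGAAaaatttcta
The TTTGAA match begins 29 bases before the start in PLK1, 23 in CDCA8, 18 in CENPA, 85 in CCNF and 20 in PIF1. In CDCA8 it shares its last base with a CCAAT match on the other strand. Promoter windows of 300 bases were found for 51 of the 60 genes of the list, and 34 of them held TTTGAA (66.7%) and 39 held CCAAT (76.5%). Of all 27305 promoter windows 15.4% held TTTGAA and 35.7% held CCAAT, and of 33 promoters of the 41 G1 and S phase genes 1 held TTTGAA (3.03%) and 18 held CCAAT (54.5%). Within the G2 and M list, the 34 genes with TTTGAA had a median log2 fold change of -0.22 and 7 called lower, and the 17 without it had -0.33 and 2 called lower. All 9 called genes with a promoter window held CCAAT. The median was -0.27 for the 39 genes with CCAAT and for the 12 without it, and every irradiated library lay below for 24 and 3 of them. These values describe the letters in the windows and not binding of a factor.

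Among genes with non-overlapping libraries and at least 1 CPM in a group, the largest fall was that of PDE4B, a phosphodiesterase that degrades cyclic AMP. It was at 15.6, 13.1, 13.5, 11.7 and 14.3 CPM in untreated and at 5.23, 5.56, 5.03, 5.27 and 6.17 CPM in irradiated libraries, 2.49-fold lower and with no overlap (log2 fold change -1.32, standard error 0.09, edgeR adjusted p = 1.76e-09). At 7 days it was at 12.7 ± 0.901 CPM. SIK1, a kinase induced by cyclic AMP that holds back CREB coactivators, rose from 22.6 ± 1.19 to 42.1 ± 0.804 CPM with little spread (log2 fold change 0.89, standard error 0.05, edgeR adjusted p = 1.05e-11). In the list of 22 phosphodiesterases and CREB genes these were the only changes, apart from CRTC2, that passed. The CREB coactivator gene CRTC2 was at 46.2 to 53.5 CPM in untreated libraries 1 to 4, at 173 CPM in the fifth and at 44.1 to 47.2 CPM at 1.5 h. Its log2 fold change of -0.71 was -0.16 without the fifth untreated library, and the call was lost.

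Of the named genes that fell, PPP1R10, MYCN, PCDH18 and SLITRK6 belong to none of the lists. PPP1R10, which encodes a nuclear targeting subunit of protein phosphatase 1, was at 117, 110.1, 121, 100 and 216 CPM in untreated and at 60.6, 64.1, 57.2, 59.5 and 63.4 CPM in irradiated libraries, lower in all of them (log2 fold change -1.12, standard error 0.14, edgeR adjusted p = 4.55e-06). Its log2 fold change was -0.88 without the fifth untreated library, and at 7 days it was at 124 ± 2.25 CPM, compared with 100 to 121 CPM in untreated libraries 1 to 4. MYCN, a MYC family factor, fell from 2.52 ± 0.396 to 1.26 ± 0.245 CPM (log2 fold change -0.98, standard error 0.14, edgeR adjusted p = 2.24e-05). The protocadherin gene PCDH18 fell from 8.37 ± 2.54 to 3.56 ± 0.752 CPM (log2 fold change -1.22, standard error 0.17, edgeR adjusted p = 2.86e-05) and the neuronal adhesion gene SLITRK6 from 1.02 ± 0.161 to 0.502 ± 0.054 CPM (log2 fold change -1.02, standard error 0.2, edgeR adjusted p = 8.47e-04).

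Some of the largest falls were set by the fifth untreated library. PRAF2, a membrane protein of the secretory pathway, was at 61.9 to 71.7 CPM in untreated libraries 1 to 4, at 344 CPM in the fifth and at 50.9 to 57.7 CPM at 1.5 h. Its log2 fold change of -1.13 (edgeR adjusted p = 0.0264) was -0.24 without that library. UBALD2 was at 47.1 to 63.2, 147 and 29 to 36 CPM in the same order, and -1.16 became -0.72. C17orf97 was at 1.63 to 2.26, 7.9 and 0.984 to 1.47 CPM, and -1.25 became -0.64. UBALD2 and C17orf97 stayed below the threshold of -0.5 without the fifth library, while PRAF2 did not. With only the 10 libraries compared, edgeR's adjusted p was 0.0344 for UBALD2, 0.102 for C17orf97 and 0.18 for PRAF2. The largest losses in CPM among the called genes, those of H1F0, MT2A, MIF, RPL27 and SYNPO, had the same pattern: without the fifth library their log2 fold changes went from -0.52, -0.59, -0.55, -0.54 and -0.67 to -0.32, -0.41, -0.28, -0.18 and -0.37, and none was called lower.

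**Figure D4:**
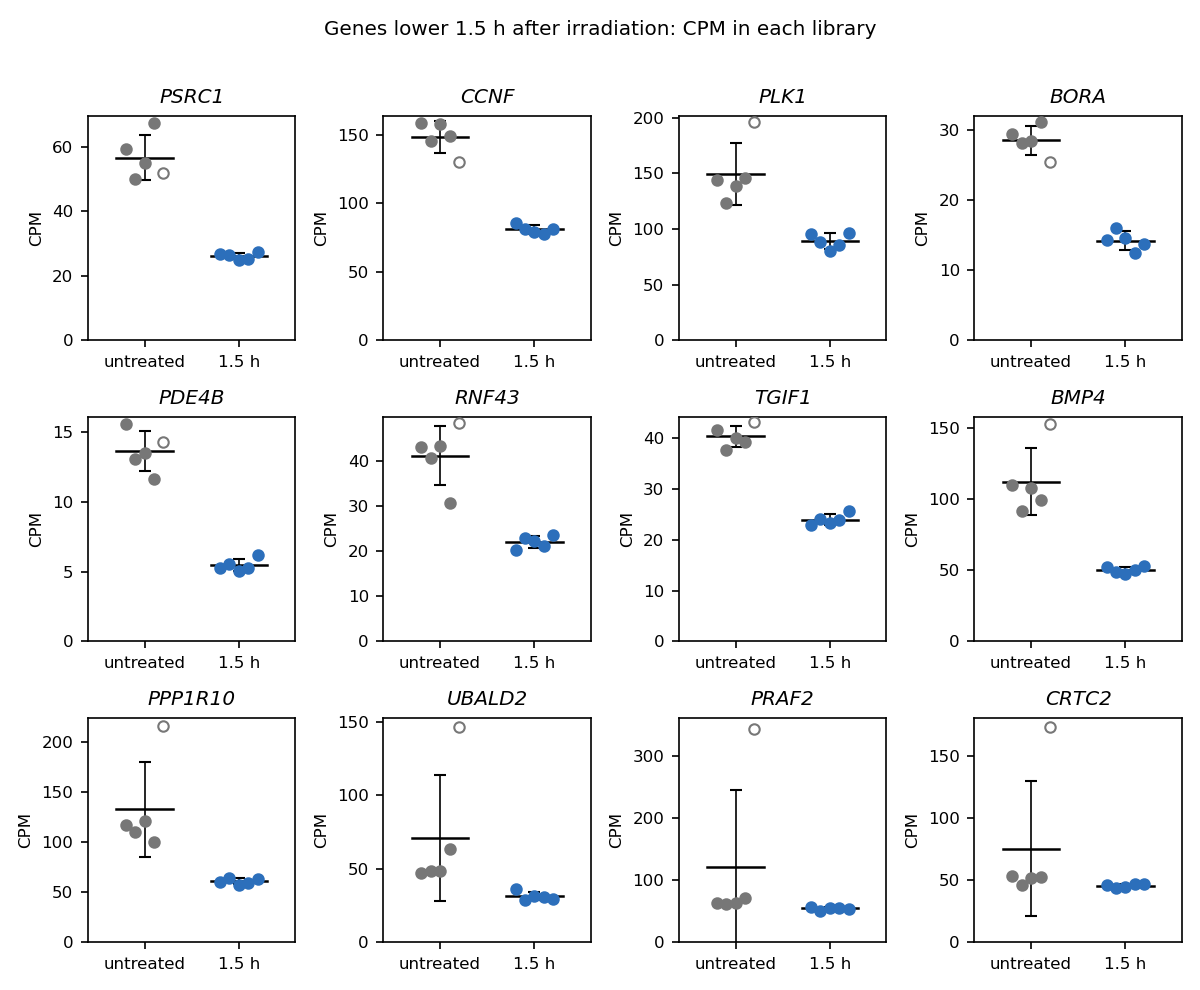
CPM of 12 genes called lower at 1.5 h post-IR, with a point for each of the 5 untreated (grey) and 5 irradiated (blue) libraries, a line for the mean and bars for the SD. The hollow point is the fifth untreated library: it lies within or near its group for PSRC1, CCNF, BORA, PDE4B, RNF43 and TGIF1, and at 147, 344 and 173 CPM it lies far above its group for UBALD2, PRAF2 and CRTC2.

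The lists of stress and metabolic programs held few calls in number. Of 24 genes of the integrated stress response 3 rose and 0 fell, with a median of -0.06. That is a larger share of rises than the 2.08% of all genes tested. The median was -0.21 without the fifth untreated library, when 2 rose, and 0.75 on lane 3 against that library alone, so the direction of the list depends on it. They were SESN2, an inhibitor of mTORC1 and also a p53 target, with 47.5, 91, 69.7, 61.6 and 50.1 CPM in untreated and 137, 131, 158, 147 and 133 CPM in irradiated libraries (log2 fold change 1.14, standard error 0.12, edgeR adjusted p = 7.54e-07), the chaperone gene DNAJB9 with 17.8 ± 2.82 and 26.9 ± 1.07 CPM (log2 fold change 0.59, standard error 0.08, edgeR adjusted p = 8.91e-06), and CEBPB, which overlapped between groups (log2 fold change 0.6, standard error 0.15, edgeR adjusted p = 0.00646) and was not called without the fifth untreated library. DNAJB9 was at 0.48 with adjustment for GC content and length and was then not called. There was 1 member of this list lower at an unadjusted p under 0.05 and 0 by DESeq2. Of 21 heat shock and folding genes 0 rose and 1 fell, HSPA1L, from 2.42 ± 0.204 to 1.31 ± 0.234 CPM (log2 fold change -0.88, standard error 0.12, edgeR adjusted p = 1.43e-05), with 2 members higher at an unadjusted p under 0.05 and 0 by DESeq2.

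In the lists of oxidative stress (20 genes), glycolysis (18 genes) and chromatin modifiers (45 genes) 0 genes were called in either direction by edgeR and 0 by DESeq2. Over all genes tested 2.08% were called higher and 1.57% lower, so lists of this size can hold 0 calls at the general share. With an unadjusted p under 0.05 there were 4 higher and 5 lower, 1 higher and 4 lower, and 7 higher and 3 lower, in this order. On lane 3 the medians of these lists were 0.24, 0.07 and -0.22, and without the fifth untreated library they were -0.09, -0.06 and 0.13. Of 28 interferon-stimulated genes 1 rose, IRF1, a transcription factor that is also an NF-κB target, from 31.1 ± 1.25 to 75.4 ± 3.64 CPM (log2 fold change 1.28, standard error 0.05, edgeR adjusted p = 3.15e-14), and 0 fell, with 3 lower at an unadjusted p under 0.05 and 0 by DESeq2. IRF1 was back at 33.6 ± 1.79 CPM at 7 days. Of 19 genes of cholesterol synthesis 1 rose, the sterol transporter gene STARD4, from 115 ± 21.1 to 173 ± 10.1 CPM (log2 fold change 0.59, standard error 0.09, edgeR adjusted p = 8.99e-05). Without the fifth untreated library, the lowest of its group, STARD4 was at 0.49 and not called.

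Clock and cytoskeletal genes had single changes in both directions. Of 18 clock genes 2 rose and 2 fell, with a median of 0.06, and without the fifth untreated library 3 rose and 1 fell. BHLHE40, a repressor of the clock, rose from 186 ± 19.9 to 290.3 ± 17.1 CPM (log2 fold change 0.64, standard error 0.06, edgeR adjusted p = 1.14e-07), and DBP, a clock output factor, fell from 28.1 ± 3.78 to 17.7 ± 0.577 CPM (log2 fold change -0.67, standard error 0.07, edgeR adjusted p = 4.74e-07). NR1D1, which encodes REV-ERBα, was called lower at -0.65, but without the fifth untreated library, at 63.8 CPM the highest of its group, it was at -0.33 and not called. Of 26 targets of YAP/TAZ and SRF 2 rose and 1 fell. NUAK2, an AMPK-related kinase, rose from 3.02 ± 0.332 to 7.31 ± 0.56 CPM (log2 fold change 1.26, standard error 0.11, edgeR adjusted p = 3.58e-08), F3, which encodes tissue factor, from 10.3 ± 0.749 to 16.5 ± 1.08 CPM (log2 fold change 0.68, standard error 0.06, edgeR adjusted p = 9.15e-08), and ANKRD1, a widely used YAP target, fell from 304, 311, 299, 329 and 353 CPM to 209, 214, 198, 194 and 211 CPM in the single libraries (log2 fold change -0.64, standard error 0.05, edgeR adjusted p = 8.66e-09).

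Genes that changed were shorter and had fewer exons on median than all genes tested. Median genomic span was 22.2 kb for higher genes and 11.5 kb for lower genes, compared with 34.0 kb for all genes tested, and the median number of exons in the longest transcript was 6 and 4, compared with 9. Of 285 single-exon genes 4.91% rose and 8.07% fell, and of 2141 genes with 21 or more exons 0.607% rose and 0.234% fell. In between, 5.23% and 5.43% of the genes with 2 exons, 3.64% and 2.94% of those with 3 to 5, 2.46% and 1.05% of those with 6 to 10 and 0.866% and 0.888% of those with 11 to 20 exons rose and fell. Of the fifth of genes with the shortest span 2.85% rose and 3.73% fell, compared with 0.881% and 0.814% of the fifth with the longest span. The falls depended on the setting more than the rises. Of the single-exon genes 14 rose and 23 fell, and 16 fell without the fifth untreated library and 11 with an adjustment of each library for GC content and length, while 14 rose in both. In the fifth with the shortest span 110 genes fell, and 68 and 53 fell in these settings. Of the genes with 3 to 5 exons 84 fell, and 50 and 59 fell. These shares are descriptions over genes, which are not replicates.

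The changes were also related to base composition. Median GC content of the transcripts was 44.0% for higher, 54.8% for lower and 48.6% for all genes. In the fifth of genes with the lowest GC content 3.76% rose, 0.508% fell and the median log2 fold change was 0.12, while in the fifth with the highest 1.56% rose, 2.71% fell and the median was -0.13. The slope of library deviations on GC content lay between 0.0353 and 0.131 log2 units per 10% GC in untreated libraries and between -0.0672 and 0.0376 at 1.5 h, so that only the first irradiated library reached into the untreated range. These shares correspond to 111 rises and 15 falls at the lowest and to 46 rises and 80 falls at the highest GC content. Without the fifth untreated library there were 120 and 13 at the lowest and 45 and 44 at the highest. With an adjustment of each library for GC content and length, which removes such a relation by construction, there were 44 and 45 at the lowest and 61 and 26 at the highest, and 171 genes fell in all. The part of base composition in the difference between groups was not tested.

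**Figure D5:**
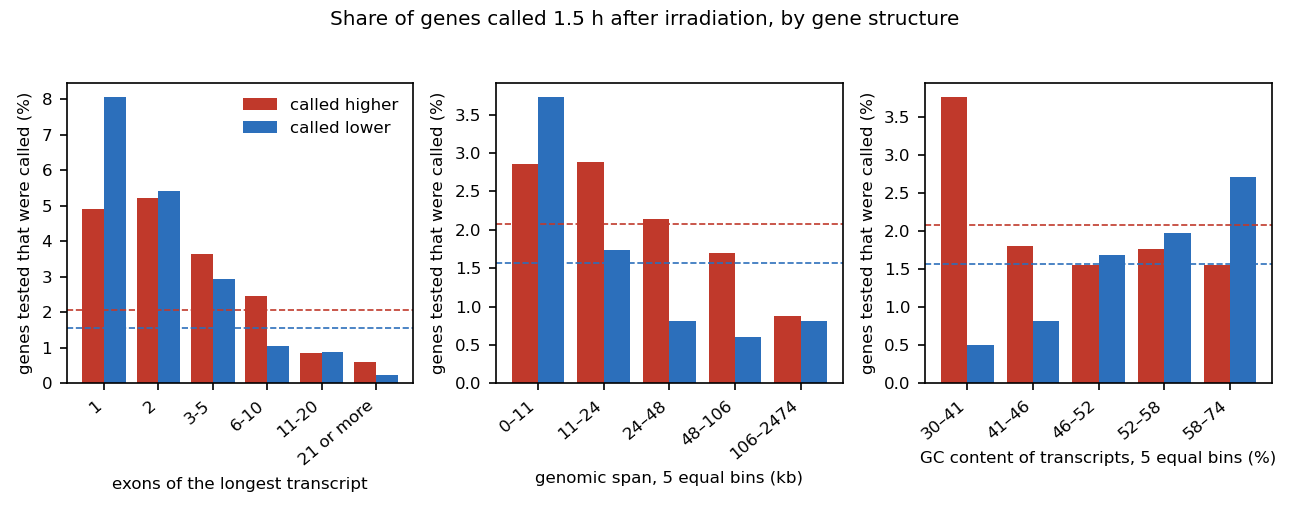
Percentage of tested genes called higher (red) and lower (blue) at 1.5 h post-IR by number of exons in the longest transcript (left), genomic span (middle) and GC content (right). Dashed lines mark the shares over all genes tested, 2.08% and 1.57%. The highest bar is the 8.07% of single-exon genes that fell, 23 genes with all libraries and 16 without the fifth untreated library.

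Among transcript classes, homeobox, T-box, SOX and forkhead genes stood out by falls, a class that was picked out after the values were seen. Of 171 tested 3 rose and 22 fell (12.9%), with a median of -0.19. Without the fifth untreated library 9 fell and the median was -0.08. NKX3-2, a repressor in cartilage development, was at 13.6, 16.5, 15.2, 16.2 and 17.2 CPM in untreated and at 9.55, 8.44, 10.4, 8.55 and 9.12 CPM in irradiated libraries (log2 fold change -0.77, standard error 0.09, edgeR adjusted p = 2.40e-06), and -0.74 without that library. SOX2, a factor of stem cells, fell from 5.18 ± 1.31 to 2.81 ± 0.4 CPM (log2 fold change -0.87, standard error 0.16, edgeR adjusted p = 4.59e-04) and HMX2, a homeobox gene of the inner ear, from 5.07 ± 1.52 to 2.41 ± 0.232 CPM (log2 fold change -1.05, standard error 0.14, edgeR adjusted p = 1.59e-05), with -0.74 and -0.87 without it. FOXP1, a forkhead factor, had a log2 fold change of -0.58 with it and of -0.38 without it, when it was not called. RUNX2, the osteoblast factor, overlapped between groups and was at -0.56 with and -0.25 without the fifth untreated library (edgeR adjusted p = 0.0235 and 0.015).

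Other classes had few calls. Of 129 long noncoding genes tested 0 rose and 4 fell, with 4 higher at an unadjusted p under 0.05 and 0 higher by DESeq2. Of 81 ribosomal protein genes 0 rose and 2 fell, with 3 higher at an unadjusted p under 0.05 and 0 by DESeq2, and without the fifth untreated library 0 fell. Of 155 snoRNA host genes 0 were called by edgeR or DESeq2, with 23 higher and 20 lower at an unadjusted p under 0.05. Of 15 replication-dependent histone genes 0 were called by either tool, with 0 higher and 3 lower at an unadjusted p under 0.05. These transcripts lack poly(A) tails and are poorly captured in mRNA libraries. Of 477 zinc finger genes 15 rose (3.14%) and 11 fell (2.31%), compared with 2.08% and 1.57% of all genes, and with adjustment for GC content and length 9 rose and 10 fell.

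The levels at 7 days are set beside those at 1.5 h without a test. Both time points are compared with the same untreated libraries. ATF3 was at 33.8 ± 0.991 CPM, JUNB at 65.3 ± 1.85 CPM, NR4A1 at 15.1 ± 1.22 CPM and DUSP2 at 14.1 ± 1.07 CPM at 7 days, all under their 1.5 h levels, and for JUNB, NR4A1 and DUSP2 under the untreated mean. FOSB at 2.16 ± 0.244 CPM, EGR4 at 0.812 ± 0.13 CPM and ARC at 102 ± 3.49 CPM were near their 1.5 h levels. MAFF at 57.6 ± 3.36 CPM was between its untreated and its 1.5 h level. CDKN1A at 816 ± 13.3 CPM, MDM2 at 704 ± 11 CPM and FAS at 120 ± 1.76 CPM were above their 1.5 h levels. BMP4 was still low, at 55.4 ± 5.21 CPM, while ANKRD1 at 376 ± 16.4 CPM and TGIF1 at 37.3 ± 1.58 CPM were near or above the untreated level.

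Some of the genes named overlap another annotated gene on the opposite strand, and the strand setting of the counting is not given in the sources used here, so reads of both partners may have been counted together. These include FOSB (ERCC1), JUNB (HOOK2), MAFF (PLA2G6), IL12A (IL12A-AS1), FAS (ACTA2), BORA (DIS3), PPP1R10 (MRPS18B), MYCN (MYCNOS), DBP (SPHK2), NR1D1 (THRA), CCNE2 (INTS8), PLK1 (ERN2), MDM2 (CPM), GRHL3 (STPG1), CDKN1A (DINOL), DNAJB9 (PNPLA8) and RUNX2 (SUPT3H).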

How the data were processed

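RNA of U2-OS cells was sequenced from quintuplicates, 20 libraries in all. According to the submitters' processing notes, reads were handled with bcl2fastq, Trimmomatic and STAR 2.4.2a on hg19. The study's methods name stranded mRNA libraries and single reads. The strand setting of the counting is not given in the sources used here. The authors deposited raw read counts per gene, without normalization. Replicates were not pooled.

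Counts were analyzed in R 4.3.3 with edgeR 4.0.16: filterByExpr (minimum count 10), TMM scaling, and a single quasi-likelihood model with a term per group over 20 libraries. Irradiated and untreated cells were compared, p values were Benjamini-Hochberg adjusted over 14992 genes, and a gene was called at an adjusted p under 0.05 where its log2 fold change exceeded 0.5 in either direction. Standard errors come from the F statistic. In the exact permutation test of single genes (252 regroupings, two-sided, log2 CPM with a prior count of 2), 0.00794, the smallest p possible, was reached by every gene whose groups did not overlap. Lane 3 values used a pseudocount of 0.05 CPM. Gene structure comes from GENCODE 29 and was matched by identifier for 14748 genes; promoters come from RefSeq (GRCh38.p14) and were matched for 11743 genes. The model was tested on simulated counts.

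The gene lists, the classes and the genes named were chosen with earlier results of these data known. Genes named were the 15 largest rises and 15 largest falls among called genes with symbols, libraries that do not overlap and a mean of at least 1 CPM in a group. The 5 largest gains and losses in CPM among all called genes and up to 4 called members of each list were added without these limits, and a choice of these is given. JUNB, JUN, FOS, NR4A1, CSRNP1, IER3, HBEGF, IL11, CSF1, CCNF, PLK1, AURKA, CENPA, CDCA8, NKX3-2, SOX2 and FOXP1 were added after their values were seen. Alternatives were other size factors, DESeq2 1.42.0, other filters, fewer libraries, a replicate block, GC and length offsets and lane. Errors given are the spread between libraries.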

Additional observations from a re-analysis of the deposited data

Results flagged for a closer look

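Among the genes named, a library lay far from the others of its group of 5 (Dixon's ratio above 0.71) in 25 of 186 groups (13.4%). Chance gives about 1 in 20 groups. In 16 of the 25 it was the fifth untreated library.

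The fifth untreated library was high for PRAF2 (344 CPM), PPP1R10 (216 CPM), RUNX2 (206 CPM), PHLDA1 (188 CPM), CRTC2 (173 CPM), UBALD2 (147 CPM), FOXP1 (64.7 CPM), NR1D1 (63.8 CPM) and C17orf97 (7.9 CPM), all called lower at 1.5 h. It was also high for the abundant genes H1F0 (1800 CPM), RPL27 (1070 CPM) and SYNPO (820 CPM), called lower as well. Among genes called higher it was high for TOB1 (62.6 CPM), FBXW7 (51.3 CPM) and TNFAIP3 (25 CPM) and low for PVRL4 (4.8 CPM).

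In the irradiated group, library 1 stood apart for IL12A (1.68 CPM) and MIF (512 CPM). Library 2 stood apart for EGR4 (0.576 CPM), DUSP2 (26.7 CPM), CSF1 (34.2 CPM) and SIK1 (40.7 CPM), and library 5 for BIRC3 (101 CPM) and DNAJB9 (25 CPM). Untreated library 3 stood apart for BMF (24.8 CPM).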

How the results depend on the processing

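Main counts were 312 genes higher at 1.5 h and 236 genes lower at 1.5 h. Fits with other size factors, DESeq2, other filters on low counts, GC and length offsets, or without any other single library kept both counts within 1.5 times. With only the 10 libraries compared, 105 were lower, and 12 of the 93 genes named lost an adjusted p under 0.05. They were CEBPB, called higher, and H2AFX, CRTC2, NR1D1, RUNX2, PRAF2, C17orf97, H1F0, MT2A, MIF, RPL27 and SYNPO, called lower. Without the fifth untreated library 155 were lower, and with the 9 libraries alone, a setting chosen after seeing the data, 120. Leaving out 1 library at a time gave 299 to 346 higher and 155 to 340 lower genes. Bonferroni adjustment left 199 and 57, and a threshold of 1 on the log2 scale 65 and 25. With lane as a factor the difference is taken from lane 3, where 1 untreated library meets 3 irradiated ones, and 1781 genes were higher and 2039 lower.

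Samples that share a replicate number did not deviate together (correlations of 0.121, 0.0171, 0.0129, -0.0669 and 0.0508), so no pairing by number was seen. Whether samples with the same number came from the same culture is not known. With a replicate block on the 10 libraries the count of genes higher at 1.5 h was 264 and that of genes lower at 1.5 h was 70, and with the block and GC and length offsets 203 and 66. Without the block the same 10 libraries gave 277 and 105. No gene named changed sign under any alternative. The cause of these differences was not tested. Depth leaves genes under about 1 CPM with wide errors, and lane, library and group cannot be told apart beyond the single untreated library on lane 3.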
